A study of Mus musculus with 28 samples.

Results

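The genes described here encode guidance receptors and their ligands for migrating cells: the receptors *Cxcr4*, *Aplnr* and *S1pr1*, and the ligands *Cxcl12*, which binds Cxcr4, and *Apln*, which binds Aplnr. They were chosen by name, with earlier results of these data known, and are 5 of the 22367 protein-coding gene entries of the annotation of the mm9 mouse genome. Mouse embryonic stem cells were differentiated for 2 days and then induced towards mesoderm for 40 h with VEGF, Activin A and BMP4, and cultures were collected at day 4. All cultures compared carried floxed *Brg1* alleles and a ubiquitous tamoxifen-inducible Cre (Brg1f/f; Actin-CreER). The control cultures received the solvent tetrahydrofuran (THF) from day 2, and the other cultures received 200 nM 4-hydroxytamoxifen (4-OHT) in THF, which makes the Cre delete *Brg1*. ChIP-seq, which sequences DNA fragments pulled down by an antibody, was done for acetylated lysine 27 of histone H3 (H3K27ac, 2 replicates per condition), the trimethylated form of the same residue (H3K27me3, 3 per condition) and Suz12 (2 per condition). FLAG-tagged Brg1 was mapped in 3 replicates of cultures with normal Brg1 only, whose sample labels give Brg1f/f; Actin-CreER while the methods of the study give a Brg1-FLAG stem cell line and FLAG ChIP in duplicate. Everything below is in base pairs (bp) covered by enriched regions in a window, or in numbers of regions, for 1 list per replicate.

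As background, Brg1 is an ATPase of the BAF complexes, which move and evict nucleosomes. H3K27ac marks active promoters and enhancers, whereas H3K27me3 is laid down by Polycomb repressive complex 2, of which Suz12 is a core subunit, and marks repressed genes. Cxcr4 and Aplnr are G protein-coupled receptors known from the movement of mesoderm and of heart and vessel precursors, and S1pr1 is a receptor for sphingosine-1-phosphate, needed for vessel maturation. The question put to these lists is where the marks lie at the genes of these receptors and ligands, and how the marked length differs between cultures with and without the deletion.

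Read depth is unknown, because the lists hold positions only. The FLAG lists held 8021, 8257 and 192 regions, so replicate 3 added little. The H3K27ac lists covered 26.1 to 30.8 Mb, the Suz12 lists 3.58 to 4.77 Mb and the H3K27me3 lists 4.74 to 11.0 Mb, and both H3K27me3 lists of replicate 1 held narrower regions (median 250 bp) than the other 4 (median 350 to 425 bp). Both Suz12 lists after 4-OHT held more regions (3654 and 4016) than both controls (2951 and 2913), while their covered lengths overlapped. In the control lists, 7 of 8 mesoderm and primitive streak markers had H3K27ac within 5 kb of the transcription start site (TSS) in both replicates, with *Kdr* at 0, as had 3 of 4 pluripotency markers, and it was at 0 in both at each of the 5 neural markers that matched the annotation and at each of the 5 endothelial and blood markers. After 4-OHT the summed H3K27ac of the mesoderm markers was 20868 and 30290 bp against 27591 and 37665 bp in controls, so these sums overlapped. Of these 8 markers, 2 (*T* and *Mesp1*) had both 4-OHT lists below both controls. The sum of the pluripotency markers was 15221 and 15271 bp against 13844 and 12444 bp, but its members differed. *Sox2* was higher (mean 2500 bp in controls, 4640 bp after 4-OHT), *Nanog* was lower (4207 and 3419 bp), and *Pou5f1* and *Zfp42* overlapped. The part of such differences in the results below was not tested, and in these whole cultures fewer cells carrying a mark and less of the mark per cell cannot be told apart.

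H3K27ac within 50 kb of the TSS covered less after 4-OHT at 4 of the 5 genes, in the sense that every 4-OHT list lay below every control list: *Cxcr4*, *Aplnr*, *Apln* and *S1pr1*. Across all protein-coding genes, 15.4% were lower by this rule and 30.6% were higher, and none of the 5 genes was higher. Genes that lie close together share parts of their windows, so these percentages do not count independent loci. *Cxcl12* had almost no H3K27ac in any list. In the H3K27me3 lists none of the 5 genes was lower or higher, against 5.93% of all genes lower. In the Suz12 lists *Cxcr4* was the only one of the 5 genes that was higher, against 6.11% of all genes. Higher Suz12 was not particular to *Cxcr4*. Within 5 kb of the TSS it was also higher at the mesoderm markers *T*, *Mixl1*, *Kdr* and *Pdgfra*, against 3.29% of all genes. It overlapped at *Eomes*, *Mesp1*, *Tbx6* and *Lhx1*, and was lower at the neural markers *Neurog2* and *Olig2*. Per gene, the two-sided exact permutation test gave p = 0.333 for each of the 4 lower H3K27ac values and for Suz12 at *Cxcr4*, which is the smallest p that 2 replicates against 2 allow (0.1 for 3 against 3), and over the 15 comparisons of 5 genes and 3 marks every Benjamini-Hochberg adjusted p was 1. The statements below therefore rest on the values of the lists and not on a passed test. On the log2 scale, with 25 bp added to each mean, the median H3K27ac difference over the 5 genes was -2.91, the value of *Cxcl12*, which is listed at 0 after 4-OHT and so depends on the added length. The median over all genes was 0 for each mark, and so was the median over the 5 genes for H3K27me3 and Suz12.

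**Figure D1:**
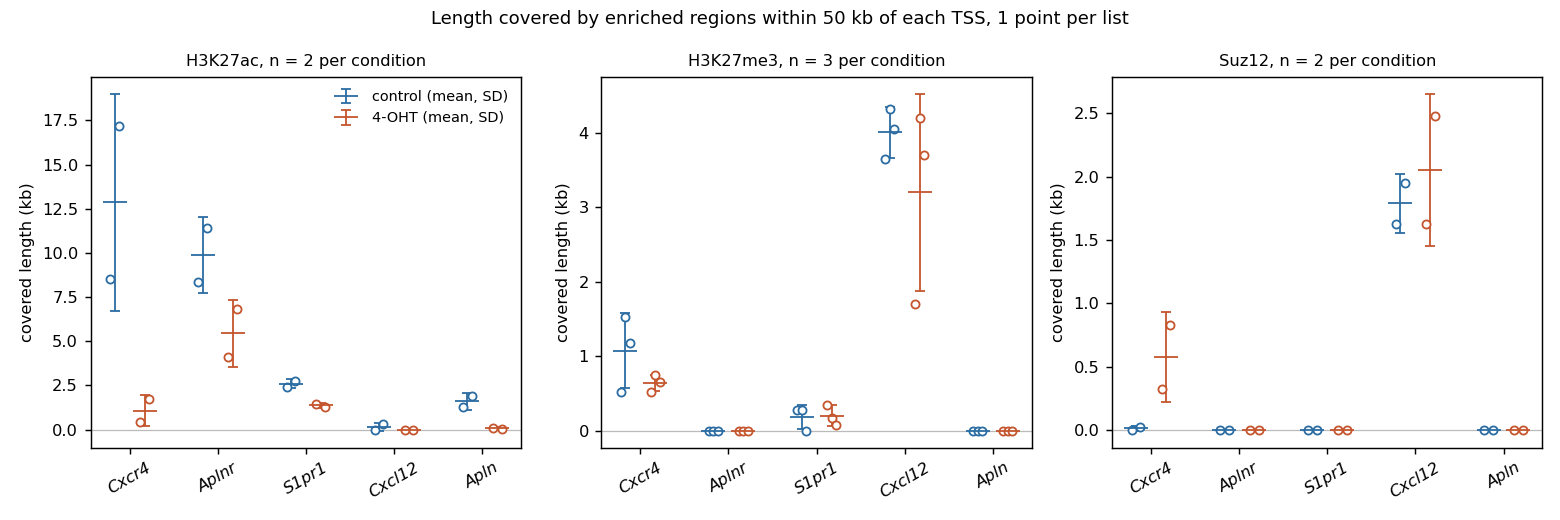
Length covered by enriched regions within 50 kb of the TSS (kb, vertical axis) for each gene, with 1 open point per list, the mean as a bar and the SD as an error bar, control in blue and 4-OHT in orange. The H3K27ac points of Cxcr4, Aplnr, S1pr1 and Apln separate by condition, Cxcl12 holds most of the H3K27me3 and Suz12, and the Suz12 points of Cxcr4 lie at 0 and 25 bp in controls and at 325 and 825 bp after 4-OHT.

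*Cxcr4*, a receptor for Cxcl12, lies at chr1:130484776-130488870 on the minus strand of mm9, with its TSS at 130488870. No other gene overlaps the 50 kb on each side, and the nearest protein-coding neighbors are *Dars*, 171 kb downstream, and *Thsd7b*, 681 kb upstream. H3K27ac covered 8525 and 17200 bp in the control lists and 450 and 1700 bp in the 4-OHT lists. The lowest control was 5.01 times the highest 4-OHT value, and the means were 12863 ± 6134 bp and 1075 ± 884 bp (SD, n = 2), a difference of -3.55 on the log2 scale. Among the 12947 genes with a control mean of at least 1000 bp, 162 (1.25%) had a lower log2 difference, and the median of those genes was 0.12. The control replicates differed from each other by 2.02 times at *Cxcr4*, whereas their list totals differed by 1.10 times. Left out singly, control replicate 2, 4-OHT replicate 1 and 4-OHT replicate 2 gave log2 differences of -2.96, -2.90 and -4.76.

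The lower H3K27ac spanned the locus. Within 50 kb there were 20 merged H3K27ac regions, of which 11 were in both control lists, all 11 lower after 4-OHT, and only 2 of the 11 were listed in any 4-OHT replicate. Over the genome, 79.3% of the 26203 merged regions present in both controls were listed in at least 1 of the 4-OHT replicates. Of all 56584 merged regions, 18.8% were lower by the same rule and 17.6% higher, to be set beside 11 of all 20 at *Cxcr4*. Only a region in both controls can be lower, so the share among those 26203 is above 18.8%, and it was not computed. In the 10 kb centered on the TSS, H3K27ac covered 1445 and 3320 bp in controls and was listed at 0 in both 4-OHT replicates, and in the gene body it covered 25 and 600 bp in controls and again 0. The promoter region at chr1:130489001-130489900, 131 bp upstream of the TSS, covered 850 and 900 bp in controls and 0 and 0 after 4-OHT. The region at chr1:130495351-130497250, centered 7.43 kb upstream, went from 1450 and 1900 bp to 0 and 0. Both regions that kept some H3K27ac lay downstream of the gene: chr1:130456326-130458875, centered 31.3 kb away, covered 1700 and 2550 bp in controls and 200 and 575 bp after 4-OHT, and chr1:130447751-130450050, centered 40.0 kb away, covered 1825 and 2300 bp and then 250 and 1125 bp. All are intergenic. The 4-OHT lists held no H3K27ac region within 25 kb of the TSS.

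**Figure D2:**
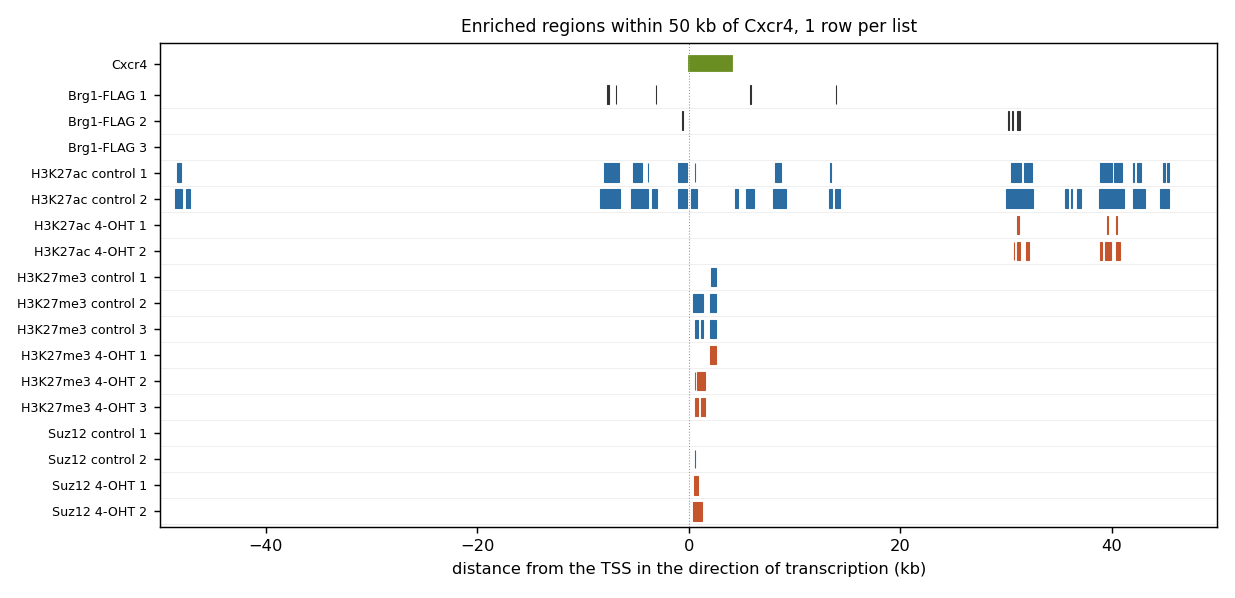
Enriched regions of each list within 50 kb of the Cxcr4 TSS, plotted against the distance from the TSS in the direction of transcription (kb), with the gene in green, FLAG in black, control in blue and 4-OHT in orange. The control H3K27ac regions lie on both sides of the gene, those of the 4-OHT lists only in 2 regions downstream, and Suz12 and H3K27me3 lie just inside the gene.

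Brg1-FLAG was found at *Cxcr4* in single replicates only. Within 50 kb the FLAG lists covered 475, 450 and 0 bp in 5, 4 and 0 regions, and none of these 9 regions was shared by 2 replicates, so none counted as Brg1-bound, the name used here for a region enriched in at least 2 of 3 FLAG replicates. Of the 20 merged H3K27ac regions, 6 held a FLAG region of 1 replicate, among them the promoter region. The nearest Brg1-bound region lay outside the window, at chr1:130429626-130430050, 58.8 kb downstream, with 325, 425 and 0 bp. The H3K27ac region over it covered 1300 and 1925 bp in controls and 300 and 1175 bp after 4-OHT.

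Inside the gene, H3K27me3 was listed in both conditions, and Suz12 almost only after 4-OHT. H3K27me3 covered 525, 1525 and 1175 bp in the 3 controls and 525, 750 and 650 bp after 4-OHT, all of it within the gene body, so the conditions overlapped at the value of replicate 1. In replicates 2 and 3 a region over an exon, chr1:130486251-130486875, went from 600 and 625 bp to 0 and 0, while the region in the intron, chr1:130487326-130488425, held 925 and 550 bp in controls and 750 and 650 bp after 4-OHT. Replicate 1 differed, with the exonic region at 525 bp in both conditions and the intronic one at 0. Without control replicate 1 the values no longer overlapped (log2 difference -1.04 against -0.72 with it), and without replicate 1 of both conditions, chosen after seeing the data, the log2 difference was -0.92. It was -0.39 without control replicate 2 and -0.18 with lengths divided by the list totals, which were lower after 4-OHT at each replicate number. Per Mb of list total, H3K27me3 was 62.6, 139 and 117 bp in controls and 111, 83.4 and 85.3 bp after 4-OHT, and the conditions overlapped. Suz12 covered 0 and 25 bp in controls and 325 and 825 bp after 4-OHT in the same intron, at chr1:130487626-130488450, so both 4-OHT lists lay above both controls. The log2 difference of 4.00 became 4.58 without control replicate 2 and 3.22 without 4-OHT replicate 2, and as a number of regions (0 and 1 in controls, 1 and 1 after 4-OHT) the conditions overlapped. This 1 region also gave the same Suz12 lengths in the 10 kb around the TSS and in the gene body, so those windows add no further observation. *Cxcr4* was the only gene of the 5 with higher Suz12 there, against 3.29% and 3.21% of all genes. *Cxcr4* was also the only gene of the 5 with both H3K27ac and H3K27me3 near its TSS in every control list, as were 2.76% of all genes. The control lists of both marks overlapped in part of the replicate combinations. The H3K27ac of control replicate 2 shared 0, 350 and 225 bp with the H3K27me3 of control replicates 1, 2 and 3, and that of control replicate 1 shared 0, 25 and 25 bp.

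The sequence of the intron where Suz12 was listed in both 4-OHT replicates and that of the promoter bases around the FLAG region of replicate 2 are shown as 200 bases each, read in the direction of the gene from the mm9 genome (NCBIM37). CG dinucleotides are in capitals in the first, and the second holds no match to the motifs searched below.
Cxcr4 intron, chr1:130488088-130488287, minus strand: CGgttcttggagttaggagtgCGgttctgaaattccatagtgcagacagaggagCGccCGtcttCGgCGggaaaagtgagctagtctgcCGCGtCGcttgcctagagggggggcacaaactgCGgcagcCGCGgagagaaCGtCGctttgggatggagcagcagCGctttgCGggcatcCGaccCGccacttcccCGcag
Cxcr4 promoter, chr1:130489338-130489537, minus strand: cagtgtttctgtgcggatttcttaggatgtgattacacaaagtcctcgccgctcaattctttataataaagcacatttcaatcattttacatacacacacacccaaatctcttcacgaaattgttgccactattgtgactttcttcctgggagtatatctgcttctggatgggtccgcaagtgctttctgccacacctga
The intron held 19 CG dinucleotides and 62.5% G and C, and the promoter bases held 5 and 42.0%. The median over 200-base centers of control H3K27ac regions was 3 CG and 50.5%.

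*Aplnr*, the apelin receptor, lies at chr2:84976517-84980079 on the plus strand. Its nearest protein-coding neighbor is *Lrrc55*, 22.4 kb downstream. H3K27ac within 50 kb covered 8375 and 11425 bp in controls and 4100 and 6800 bp after 4-OHT. Here the conditions lay closer together than at *Cxcr4*: the lowest control was 1.23 times the highest 4-OHT value, the means were 9900 ± 2157 bp and 5450 ± 1909 bp (SD, n = 2), and the log2 difference was -0.86, with 7.65% of the 12947 genes lower. Of the control H3K27ac, 64.7% lay within 5 kb of the TSS, where it covered 5359 and 7451 bp in controls and 2784 and 4809 bp after 4-OHT. In the gene body it covered 1438 and 2538 bp and then 784 and 1034 bp. H3K27ac near the TSS was present in every control list at *Cxcr4*, *Aplnr* and *S1pr1*, 3 of the 5 genes, against 47.7% of all genes (10669). It was lower after 4-OHT at the same 3 of the 5, against 6.76% of all genes (1511). Only a gene with H3K27ac in every control list can be lower, so for these 3 genes the 1511 are to be set against the 10669. In the gene body it was lower at *Cxcr4* and *Aplnr*, against 10.3%.

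At *Aplnr* the regions narrowed and remained listed. All 4 H3K27ac regions found in both controls were also listed after 4-OHT, each covering less in every 4-OHT list than in any control list. The region over the TSS, chr2:84974976-84977250, covered 2000 and 2275 bp in controls and 1325 and 1950 bp after 4-OHT. An upstream region at chr2:84969801-84973700 covered 3425 and 3900 bp and then 1950 and 2800 bp. The region over the end of the gene, chr2:84978276-84981075, lost the most of the 4 in proportion, from 1525 and 2800 bp to 300 and 1000 bp. A region 24.3 kb downstream, chr2:85000026-85001625, which overlaps an exon of the non-coding transcript *Gm13713*, covered 1425 and 1600 bp and then 525 and 1050 bp. Counted as regions instead of bp, the conditions overlapped (log2 difference -0.11). No H3K27me3 or Suz12 region was listed within 50 kb in any replicate, and the nearest lay 243 and 248 kb upstream.

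*Aplnr* was the only gene of the 5 with a Brg1-bound region within 50 kb, as were 9.32% of all genes, and it had 4. The upstream region at chr2:84970876-84971450 was listed in all 3 FLAG replicates with 575, 525 and 25 bp. The others were listed in replicates 1 and 2: chr2:84972126-84972750 with 625 and 450 bp, chr2:84975801-84976275, 242 bp upstream of the TSS, with 25 and 475 bp, and chr2:85000701-85000850 with 50 and 150 bp. All 4 lay inside control H3K27ac regions, the first 2 in the same one. With replicate 1 or replicate 2 left out, 1 of the 4 remained, since replicate 3 listed 192 regions in all. The 200 bases around the part that at least 2 replicates shared are given for each, with a match to a motif in capitals.
Aplnr 5.4 kb upstream, chr2:84971038-84971237, plus strand: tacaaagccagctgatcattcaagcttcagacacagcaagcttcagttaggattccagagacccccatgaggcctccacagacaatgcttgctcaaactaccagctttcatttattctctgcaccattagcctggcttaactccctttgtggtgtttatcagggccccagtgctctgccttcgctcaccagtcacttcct
Aplnr 4.1 kb upstream, chr2:84972276-84972475, plus strand: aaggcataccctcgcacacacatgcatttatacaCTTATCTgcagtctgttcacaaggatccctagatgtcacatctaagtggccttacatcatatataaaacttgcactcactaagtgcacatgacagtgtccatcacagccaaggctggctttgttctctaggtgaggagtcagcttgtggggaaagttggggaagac
Aplnr 0.4 kb upstream, chr2:84975988-84976187, plus strand: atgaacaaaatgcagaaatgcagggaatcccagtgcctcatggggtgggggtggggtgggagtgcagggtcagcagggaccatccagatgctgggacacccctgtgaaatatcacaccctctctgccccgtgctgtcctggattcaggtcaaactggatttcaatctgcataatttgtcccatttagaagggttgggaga
Aplnr 24.2 kb downstream, chr2:85000651-85000850, plus strand: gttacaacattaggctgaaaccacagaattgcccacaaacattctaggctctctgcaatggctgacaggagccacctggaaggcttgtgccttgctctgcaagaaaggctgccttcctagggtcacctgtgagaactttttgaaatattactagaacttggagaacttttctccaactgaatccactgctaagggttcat
These were searched on both strands for 6 sites of factors known from early mesoderm, allowing overlaps between sites. The letters were AGGTGTGA for the T-box family, TGTTTAC for forkhead (Fox) factors, AATCCACA for Foxh1, CTTTGAT for Tcf and Lef, and CCGGAAGT for factors of the Ets family. The site of the GATA family was searched as AGATAAG. The sequence 4.1 kb upstream held 1 GATA match, at bases 35 to 41 on the opposite strand, and the other 3 held none. A GATA match was present in 3.18% of the 2390 Brg1-bound regions and in 2.54% of the control H3K27ac regions, by their central 200 bases, and any of the 6 motifs in 11.6% and 10.5%. A match is a description of the letters only.

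**Figure D3:**
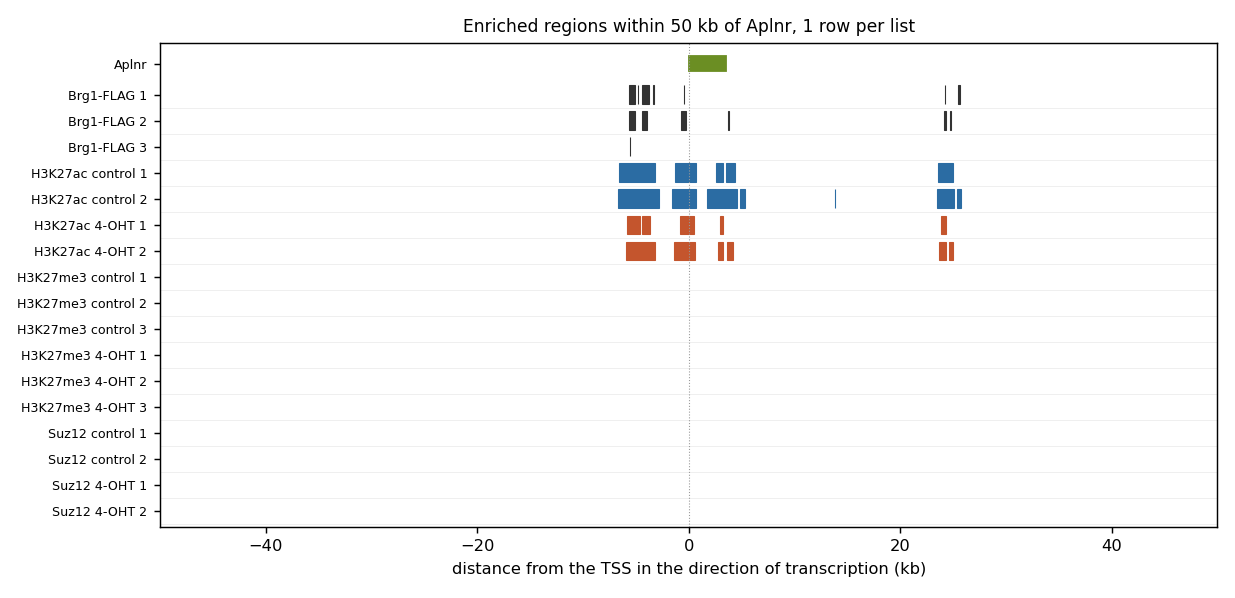
Enriched regions of each list within 50 kb of the Aplnr TSS against the distance from the TSS in the direction of transcription (kb), with the gene in green, FLAG in black, control in blue and 4-OHT in orange. The 4 H3K27ac regions found in both controls are narrower in both 4-OHT lists, and the H3K27me3 and Suz12 rows are empty. The FLAG regions lie inside these 4, apart from 1 of replicate 1 at 25.4 kb downstream.

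*S1pr1*, a receptor for sphingosine-1-phosphate, lies at chr3:115413351-115417973 on the minus strand, with *A930005H10Rik* and *Olfm3* as the nearest protein-coding genes, 173 kb upstream and 585 kb downstream. H3K27ac within 50 kb covered 2425 and 2775 bp in controls and 1450 and 1275 bp after 4-OHT, with means of 2600 ± 247 bp and 1363 ± 124 bp (SD, n = 2) and a log2 difference of -0.92. Of the 12947 genes, 7.21% had a lower value. Its 3 regions had unlike values. The promoter region at chr3:115418001-115418375, which also overlaps an exon of the pseudogene *Gm9889*, covered 275 and 375 bp in controls and 0 and 125 bp after 4-OHT. The upstream region at chr3:115460976-115462225, centered 43.6 kb away, covered 950 and 1250 bp and then 0 and 0. The downstream region at chr3:115391976-115393450, 25.3 kb away, covered 1200 and 1150 bp in controls and 1450 and 1150 bp after 4-OHT, and there the conditions overlapped. With only 25 kb on each side of the TSS, which leaves out the upstream region, the conditions at *S1pr1* overlapped (log2 difference -0.42).

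H3K27me3 at *S1pr1* was short or at 0 in every list, with 275, 275 and 0 bp in controls and 350, 175 and 75 bp after 4-OHT. These sums join unlike regions. The one in an intron held 275, 275 and 0 bp in controls and 125, 25 and 75 bp after 4-OHT. The upstream one, chr3:115418751-115419000, was at 0 in every control and held 225, 150 and 0 bp after 4-OHT. The conditions overlapped in each region and in the sum. The sign of the difference of the sums changed when control replicate 3 or 4-OHT replicate 1 was left out (log2 difference 0.11 with all lists, -0.42 and -0.47 without them). No Suz12 or FLAG region was listed within 50 kb, and the nearest Brg1-bound region was 1243 kb away. The upstream region that was listed at 0 after 4-OHT is represented by the 200 bases at the center of the part shared by both controls, with 1 Fox match in capitals.
S1pr1 43.6 kb upstream, chr3:115461426-115461625, minus strand: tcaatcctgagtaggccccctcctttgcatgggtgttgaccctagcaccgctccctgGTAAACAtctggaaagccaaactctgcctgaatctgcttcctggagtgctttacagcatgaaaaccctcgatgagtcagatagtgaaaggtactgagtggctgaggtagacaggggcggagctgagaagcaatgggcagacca
The match covers bases 58 to 64 on the opposite strand, and 2.45% of the control H3K27ac centers of this length hold one.

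Of the ligands, *Cxcl12* was marked by Polycomb and *Apln* was not. *Cxcl12* lies at chr6:117118553-117131385 on the plus strand, with *Rpl28-ps4* as the nearest gene, 32.3 kb downstream. H3K27ac within 50 kb was listed only in control replicate 2, as 3 regions with 325 bp in all about 27 kb downstream, and was at 0 in the other control and in both 4-OHT lists. H3K27me3 within 50 kb covered 3650, 4325 and 4050 bp in controls and 1700, 4200 and 3700 bp after 4-OHT, with means of 4008 ± 339 bp and 3200 ± 1323 bp (SD, n = 3). These values overlapped (two-sided exact permutation test, p = 0.500). The labels give replicate numbers and no pairing. The same numbers were taken as pairs from correlations within these H3K27me3 lists, which set apart mainly replicate 1, so pairs 2 and 3 are an assumption. In each of the 3 pairs so formed the 4-OHT value was lower, as for 18.6% of all genes. The exact sign-flip test of the paired differences gave p = 0.250, the smallest that 3 pairs allow. With the replicate block, therefore, 1 of the 5 genes was lower for H3K27me3 and without it none. H3K27me3 list totals were also lower after 4-OHT in each pair. Per Mb of list total, *Cxcl12* H3K27me3 was 435, 393 and 404 bp in controls and 359, 467 and 485 bp after 4-OHT. On that scale pairs 2 and 3 were higher after 4-OHT, none of the 5 genes was lower with the block (chosen after seeing the data), and the log2 difference of *Cxcl12* was 0.09 against -0.32 for the lengths as deposited.

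The widest *Cxcl12* H3K27me3 region lay over the TSS, chr6:117117301-117121675, which reaches from upstream of the gene over exonic sequence into an intron. It covered 2250, 4100 and 3950 bp in controls and 1700, 4200 and 3700 bp after 4-OHT, and the other 12 merged regions, of 25 to 400 bp, were in control lists only, most of them in that of replicate 1. Near the TSS, H3K27me3 was present in every control list at *Cxcr4* and *Cxcl12*, 2 of the 5 genes, against 11.8% of all genes, and Suz12 at *Cxcl12* alone, against 6.04%. Suz12 lay in a narrower region inside it, chr6:117117501-117120050, with 1625 and 1950 bp in controls and 1625 and 2475 bp after 4-OHT, so the conditions touched at 1625 bp. H3K27me3 of control replicates 2 and 3 covered 81.5% to 100% of this Suz12 length, and that of control replicate 1 covered 20% and 33.3%. The 200 bases just before the TSS, where Suz12 was listed in all 4 replicates, are shown with CG in capitals.
Cxcl12 upstream, chr6:117118353-117118552, plus strand: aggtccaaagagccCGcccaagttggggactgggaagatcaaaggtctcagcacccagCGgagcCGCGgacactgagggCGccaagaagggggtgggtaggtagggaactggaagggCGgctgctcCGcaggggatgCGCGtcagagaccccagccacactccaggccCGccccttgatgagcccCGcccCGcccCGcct
They held 13 CG and 68.5% G and C, against medians of 7 CG and 55.5% over the 22339 different stretches of this length before protein-coding TSSs. A Tcf/Lef match on the opposite strand lies at bases 38 to 44, as in 2.34% of those stretches at any position. FLAG was listed once, in replicate 2, with 75 bp 30.3 kb downstream, and the nearest Brg1-bound region was 1087 kb away.

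*Apln* lies at chrX:45378323-45388030 on the minus strand. It had no region of any mark within 5 kb of its TSS or in its gene body, and no H3K27me3, Suz12 or FLAG region within 50 kb. Its H3K27ac lay 29.2 to 38.0 kb upstream, in intergenic sequence, and covered 1250 and 1925 bp in controls and 100 and 25 bp after 4-OHT. The lowest control was 12.5 times the highest 4-OHT value, with means of 1588 ± 477 bp and 62.5 ± 53.0 bp (SD, n = 2) and a log2 difference of -4.20. Of the 12947 genes, 135 (1.04%) were lower. Without 4-OHT replicate 1 the log2 difference was -5.01 and without 4-OHT replicate 2 it was -3.69. The wider region, chrX:45425401-45426575, covered 825 and 1175 bp in controls and 100 and 25 bp after 4-OHT, and the other region in both controls, chrX:45417776-45418350, covered 325 and 575 bp and then 0 and 0. These regions lie in the 73.9 kb between *Apln* and its nearest upstream protein-coding neighbor, *Xpnpep2*, and the lists do not say which gene they belong to. The 200 bases at the center of the wider region hold no match to the 6 motifs.
Apln 37.8 kb upstream, chrX:45425763-45425962, minus strand: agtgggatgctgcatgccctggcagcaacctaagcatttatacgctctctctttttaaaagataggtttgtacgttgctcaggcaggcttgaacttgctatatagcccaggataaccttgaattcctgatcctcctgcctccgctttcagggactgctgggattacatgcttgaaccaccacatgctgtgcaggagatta
They hold 3 CG and 48.0% G and C.

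**Figure D4:**
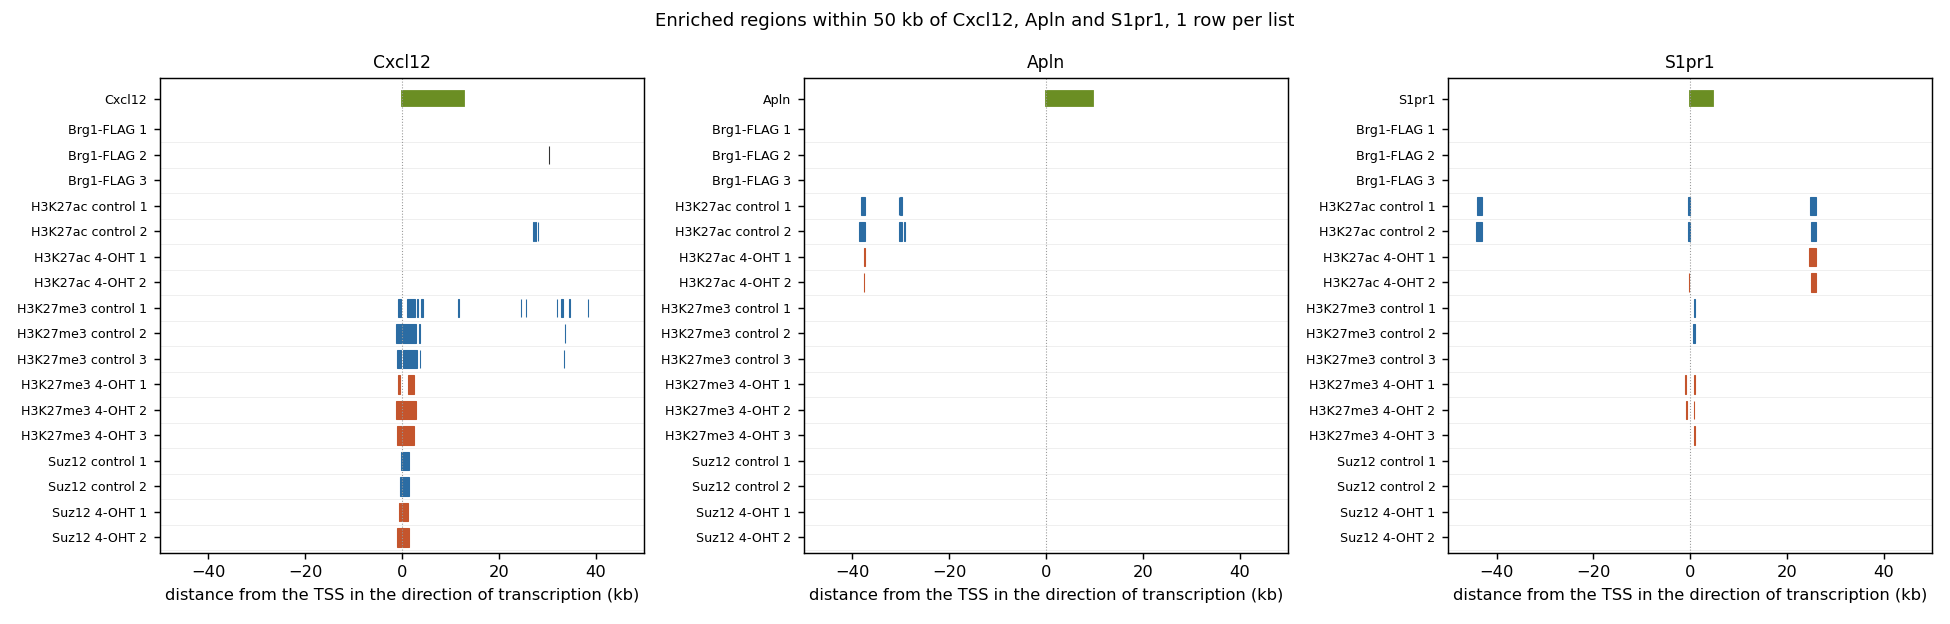
Enriched regions of each list within 50 kb of the TSS of Cxcl12, Apln and S1pr1 against the distance from the TSS in the direction of transcription (kb), with the gene in green, FLAG in black, control in blue and 4-OHT in orange. H3K27me3 and Suz12 sit over the Cxcl12 TSS in both conditions, the upstream H3K27ac of Apln shrinks to 100 and 25 bp, and S1pr1 keeps its downstream region and not its upstream one.

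**Figure D5:**
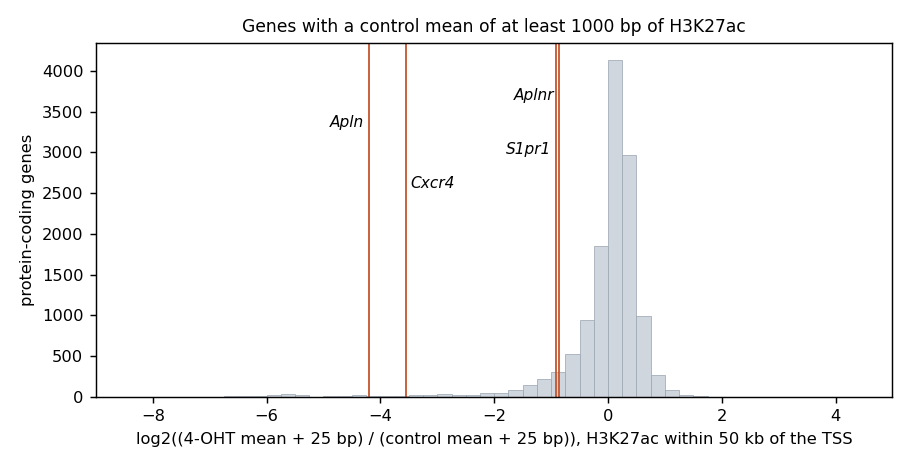
Number of protein-coding genes (vertical axis) by the log2 difference of H3K27ac within 50 kb of the TSS, with 25 bp added to the mean of each condition (horizontal axis), for the 12947 genes with a control mean of at least 1000 bp. Orange lines mark Apln at -4.20, Cxcr4 at -3.55, S1pr1 at -0.92 and Aplnr at -0.86, all left of the median of 0.12.

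In the order of their control H3K27ac within 50 kb, the 5 genes ran *Cxcr4*, *Aplnr*, *S1pr1*, *Apln* and *Cxcl12*. The replicates of *Cxcr4* (8525 and 17200 bp) spanned those of *Aplnr* (8375 and 11425 bp) in part, so these neighbors did not differ beyond their spread, whereas *S1pr1*, *Apln* and *Cxcl12* each lay apart from the next. After 4-OHT the order was *Aplnr*, *S1pr1*, *Cxcr4*, *Apln* and *Cxcl12*, with *S1pr1* inside the range of *Cxcr4*. Over the 5 windows 37 merged H3K27ac regions were found, 19 lower (11 of them at *Cxcr4*) and none higher after 4-OHT, against 18.8% lower and 17.6% higher of all merged regions. Of the 20 in both controls, 9 were listed after 4-OHT, 2 of 11 at *Cxcr4* and 7 of 9 at the other genes, against 79.3% of all merged regions in both controls. The share at the other genes was thus near that of the genome, and the share at *Cxcr4* was below it.

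Further genes of these pathways, 28 in a fixed list of which 27 matched the annotation, were found lower as well as higher. For H3K27ac within 50 kb, 7 were lower and 9 higher after 4-OHT, 25.9% and 33.3% against 15.4% and 30.6% of all genes, and the median log2 difference was 0.09. Among the chemokine genes, the receptor *Cxcr3* went from 275 and 500 bp to 0 and 0, while *Ackr3*, a second receptor for Cxcl12, overlapped with 696 and 675 bp in controls and 1721 and 546 bp after 4-OHT. In the sphingosine phosphate group the receptor *S1pr5* (5275 and 5950 bp, then 4225 and 3725 bp), the lyase *Sgpl1*, the phosphatase *Sgpp1* (2050 and 1900 bp, then 1000 and 750 bp) and the lipid phosphatase *Plpp3* (2875 and 3125 bp, then 1375 and 1075 bp) were lower. The receptor *S1pr4*, the kinase *Sphk2* and the exporter *Spns2* (2000 and 1900 bp, then 2875 and 2775 bp) were higher. In the gene body of *Spns2*, however, H3K27ac was lower, with 225 and 650 bp in controls and 0 and 0 after 4-OHT. Of the genes of signal coupling, the G protein subunit *Gna12* (3000 and 7150 bp, then 575 and 550 bp) and the arrestin *Arrb1* (2325 and 3800 bp, then 700 and 125 bp) were lower, and *Gnai2*, *Arrb2*, *Grk6*, *Rac1*, *Cdc42* and *Rhoa* were higher, for example *Rhoa* with 14350 and 13750 bp and then 18400 and 16950 bp. For H3K27me3, *Dpp4*, *S1pr2*, *Grk6* and *Pik3cg* were lower, 14.8% of the 27 against 5.93% of all genes, and none was higher. For Suz12, *Sgpp1* and *Gnai2* were higher, 7.41% against 6.11%, and *Sphk1* was lower, 3.70% against 1.11%. These calls are for the 50 kb window and not always for the named gene. The H3K27me3 of *S1pr2* and *Grk6*, the Suz12 of *Gnai2* and the H3K27ac of *Cxcr3* were at 0 in every list within 5 kb of the TSS and in the gene body.

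The genes whose covered lengths over the 17 lists were nearest to those of each of the 5 were ranked by the mean absolute difference of log2(bp + 25) in the 50 kb window. For *Apln* they were *Paqr3* (0.05), *Dok5* (0.10) and *Bcas1* (0.12), where the mean H3K27ac was 1200, 1688 and 1788 bp in controls and 62.5, 87.5 and 75.0 bp after 4-OHT. For *Cxcl12* they were *Kcnc4*, *Dmrt1* and *Sgcb* (0.27 to 0.38), and for *S1pr1* they were *Acadl*, *Mlkl* and *Lpgat1* (0.44 to 0.45). For *Aplnr* they were *9630014M24Rik*, *Arhgap26* and *Spry4*, all at 0.14 because their windows hold the same regions. *Cxcr4* had no gene as near: *Catsper4*, *Cnksr1* and *Grrp1*, all on chromosome 4, were at 0.92 to 0.93, and the mean H3K27ac there was 8575 to 9913 bp in controls and 5100 to 6413 bp after 4-OHT. Their mean H3K27me3 and Suz12 lengths were identical, so they are not to be read as separate loci.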

How the data were processed

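ChIP-seq of 28 day 4 samples was used, 17 with a list and 11 inputs used only by the authors in calling. The authors deposited, for each replicate alone, the chromosome, start and end of regions enriched over input under a Poissonian model, at a threshold of 1e-06 for FLAG and 1e-12 for the others. These deposited values are positions with no score, count, fold or p-value, so a longer list may reflect a stronger or a deeper library. Bowtie and mm9 are named in the submitters' processing notes, and read filters and depth are not given in the sources used here. Samples were grouped by their labels, and the study calls the replicates biological, in duplicate for FLAG, of which 3 lists were used here.

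Genes came from the GENCODE annotation of NCBIM37 (mm9). The TSS was the start of the gene entry. Covered length and number of regions were taken in the TSS plus or minus 5 kb, in the gene body and in the TSS plus or minus 50 kb. A gene was lower or higher after 4-OHT when the conditions did not overlap. Means were compared by two-sided exact permutation tests, adjusted over 15 comparisons by Benjamini-Hochberg. Regions sharing at least 1 bp were merged. The 5 genes, their coordinates and every merged region in their windows were described, and given with position where Brg1-bound, over or at the TSS, or among the 3 widest that were lower or higher. Other regions with a position, such as those of H3K27me3 in *Cxcr4* and the nearest Brg1-bound regions outside the window, were chosen after their values were seen. Pathway genes were named where the conditions did not overlap in the 50 kb window, apart from *Ackr3*, named after its values were seen. The genes, gene lists and motifs were chosen with earlier results of these data known.

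Same-numbered control and 4-OHT deviations from the condition means correlated over gene windows at 0.95, 0.93 and 0.88 for H3K27me3, so those numbers were taken to pair the samples, as judged from the lists alone. Controls 2 and 3 correlated nearly as well with the 4-OHT list of the other number (0.82 and 0.81), so mainly replicate 1 stood apart. With 2 pairs the values were 0.54 for H3K27ac and 0.87 for Suz12. The alternatives tried were other windows and TSSs, scaling by list total, regions of at least 250 bp, region numbers, the replicate block and leaving out single replicates. The scripts' counting of bases, merging and calls were tested on simulated region lists. Software was Python 3.11.15 with SciPy 1.17.1, NumPy 2.4.6 and, for plots, Matplotlib 3.10.9.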

Additional observations from a re-analysis of the deposited data

How the results depend on the processing

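Depth is unknown, so a region that is missing from a list was not called there and may still hold reads. The count of 4 genes with lower H3K27ac within 50 kb became 2 (*Cxcr4* and *Aplnr*) with 25 kb on each side of the TSS, by construction for *Apln*, whose regions lie farther out, and was within 1.5 times under the other alternatives, each replicate left out and the replicate block included. The count of 0 genes with lower H3K27me3 became 1 with the replicate block, 1 by number of regions (*Cxcl12*), 1 without replicate 1 of both conditions (*Cxcr4*), and 0 to 1 with single replicates left out. The count of 1 gene with higher Suz12 became 0 by number of regions, 2 with the replicate block on lengths divided by the list total, and 1 to 2 with single replicates left out, *Cxcl12* joining *Cxcr4* without 4-OHT replicate 1. Gene and mark pairs that did not overlap in the gene body numbered 3, 5 with the replicate block (*Cxcl12* H3K27me3 and Suz12 added as lower), and 3 to 6 with single replicates left out, 6 without control replicate 1. The 4 Brg1-bound regions became 19 when any of the 3 replicates sufficed and 1 to 4 with single replicates left out. Of 119 log2 differences of single genes under alternatives, 110 kept their call, 4 lost and 5 gained separation. None that was separated changed sign, while 6 that overlapped did (4 for H3K27me3 at *S1pr1*, and 1 each for H3K27me3 and Suz12 at *Cxcl12*). Near the TSS the replicate block made 4 gene and mark pairs 5, by *Cxcl12* H3K27me3. It changed no other count within 50 kb. The block within 5 kb, in the gene body and on scaled lengths was added after seeing the data. The cause of these changes was not tested except where stated.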
